A study of Mus musculus with 12 samples.

Results

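Nuclear genes of the oxidative phosphorylation complexes were followed in bulk RNA sequencing of mouse hematopoietic stem and progenitor cells (HSPCs). Members were the genes whose symbol starts with Nduf, Uqcr, Atp5, Cox4, Cox5, Cox6, Cox7 or Cox8, or is Cyc1, Sdha, Sdhb, Sdhc or Sdhd. The 7 symbols that contain -ps, which mark pseudogenes, were left out. This gave 93 of the 20792 listed genes. They were 7 core subunits, 31 accessory subunits and 8 assembly factors of complex I, 4 subunits of complex II, 9 of complex III, 17 of complex IV and 17 of complex V. Ndufa4 was counted with complex IV, where its protein is now placed. Ndufb4c, Ndufs6b and Cox6c2 are annotated as processed pseudogenes and fit the symbol rule all the same. No measured level was used to choose the members.

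HSPCs were sorted as bone marrow cells positive for c-kit and Sca-1 and negative for CD127 and lineage markers, from male wild-type mice, which began their diet at 6 weeks of age. HSD ICHD7 mice had a high salt diet for 8 weeks and then an intracerebral hemorrhage (ICH), and their HSPCs were taken on day 7 after it. ND ICHD7 mice had a normal diet for 8 weeks before the same surgery and the same interval. HSD and ND mice had 8 weeks of the high salt or the normal diet and no ICH. All mice with ICH were kept on the normal diet after surgery, so HSD ICHD7 also differs from HSD by the return to normal chow and by age. Each group had 3 libraries, 12 in all. Each ND and HSD library was pooled from 3 animals, and the number of animals behind an ICHD7 library is not given in the sources used here. The p-values below therefore measure only the spread between these libraries. In bulk RNA, fewer cells of a type and less RNA per cell cannot be told apart.

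Oxidative phosphorylation makes ATP in the inner mitochondrial membrane. Complex I takes electrons from NADH and complex II from succinate, complex III passes them on to cytochrome c, and complex IV gives them to oxygen. Complexes I, III and IV pump protons, and complex V, the ATP synthase, uses the returning protons to make ATP. Complex II is encoded wholly in the nucleus, while the other complexes also hold subunits encoded in mitochondrial DNA. Quiescent hematopoietic stem cells are known to lean on glycolysis, and oxidative phosphorylation rises as they divide and differentiate.

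The libraries held 8678304 to 27491973 reads in the listed genes. Members took 0.537% of the reads in HSD ICHD7 library 3, 0.443% in ND ICHD7 library 2 and 0.351% to 0.404% in the other libraries, and none of them was at 0 reads in any library. The 10 HSPC markers were detected in every library. They summed to 988.5 CPM (read counts scaled to a common library size) in HSD ICHD7 library 3, against 1493 to 1858 CPM in the others. Of the markers used in the sort, Kit (c-kit) had 328.9 to 487.3 CPM and Ly6a (Sca-1) only 2.42 to 6.718 CPM. Of 8 genes that the sort should remove, 5 were listed and summed to 24.3 to 50.04 CPM, of which Itgam gave 21.66 to 40.01 CPM, and the T cell genes Cd3e and Cd8a were not among the listed genes. In all, 4 libraries stood apart. The 10 genes of granulocyte-monocyte progenitors, a list chosen after their values were seen, summed to 13990 CPM in HSD ICHD7 library 3 and to 1479 to 5366 CPM in the other libraries. The 15 macrophage genes summed to 1025 CPM in HSD library 2, 576.4 CPM in ND library 1 and 105.9 to 234.1 CPM elsewhere. ND ICHD7 library 2 was set apart by a wide spread of its short genes in both directions, described with HSD ICHD7 library 3 further on. The libraries after ICH had 2 to 29 listed genes at 0 reads and those without ICH 1393 to 1755, so whatever set these 2 kinds of library apart cannot be told apart from ICH.

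Promoter sequence was available from RefSeq (GRCm38.p6) for 74 of the 93 members, as 250 bases before and 50 bases after the gene start. The sequences below belong first to Sdha, Sdhb and Sdhd of complex II, as Sdhc was not among the 74. All 4 complex II genes lay higher in HSD ICHD7 than in ND ICHD7 without overlap, as 10% of all genes did. Also shown are Atp5g1 and Cox6a1, which had the smallest p-values of the members in that comparison. Capitals mark GCGCANGCG, the core of the NRF1 site, or CCGGAAG, the core of the ETS family site, on either strand, and overlapping NRF1 matches are joined.
Sdha, chr13:74350191-74350490, minus strand: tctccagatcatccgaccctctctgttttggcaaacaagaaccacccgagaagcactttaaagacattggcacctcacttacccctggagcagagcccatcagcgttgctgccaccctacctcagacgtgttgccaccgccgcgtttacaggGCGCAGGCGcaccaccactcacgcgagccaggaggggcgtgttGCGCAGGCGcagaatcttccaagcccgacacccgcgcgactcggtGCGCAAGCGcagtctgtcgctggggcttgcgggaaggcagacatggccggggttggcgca
Sdhb, chr4:140961021-140961320, plus strand: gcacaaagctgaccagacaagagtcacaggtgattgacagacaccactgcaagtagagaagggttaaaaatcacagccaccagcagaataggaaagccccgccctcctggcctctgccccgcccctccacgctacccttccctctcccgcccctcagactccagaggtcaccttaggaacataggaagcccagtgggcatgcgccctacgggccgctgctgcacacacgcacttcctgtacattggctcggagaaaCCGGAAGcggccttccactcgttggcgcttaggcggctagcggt
Sdhd, chr9:50603800-50604099, minus strand: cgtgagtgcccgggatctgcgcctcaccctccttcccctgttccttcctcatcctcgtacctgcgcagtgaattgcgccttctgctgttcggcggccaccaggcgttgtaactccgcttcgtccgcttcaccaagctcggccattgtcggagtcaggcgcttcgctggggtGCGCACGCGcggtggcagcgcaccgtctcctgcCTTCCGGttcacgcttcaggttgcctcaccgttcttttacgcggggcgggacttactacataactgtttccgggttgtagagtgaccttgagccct
Cox6a1, chr5:115348909-115349208, minus strand: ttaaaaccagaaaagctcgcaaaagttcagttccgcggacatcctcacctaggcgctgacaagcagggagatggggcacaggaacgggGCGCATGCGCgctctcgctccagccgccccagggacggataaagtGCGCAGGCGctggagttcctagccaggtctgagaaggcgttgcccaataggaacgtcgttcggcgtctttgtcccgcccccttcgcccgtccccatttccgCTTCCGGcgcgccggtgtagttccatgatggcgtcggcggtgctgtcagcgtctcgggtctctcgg
Atp5g1, chr11:96075582-96075881, minus strand: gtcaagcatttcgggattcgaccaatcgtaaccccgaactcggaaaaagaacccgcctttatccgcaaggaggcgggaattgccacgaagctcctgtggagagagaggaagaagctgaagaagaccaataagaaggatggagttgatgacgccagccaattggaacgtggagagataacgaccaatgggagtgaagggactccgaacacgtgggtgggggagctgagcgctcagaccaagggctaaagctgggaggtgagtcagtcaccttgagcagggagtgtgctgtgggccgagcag
Sdha held 3 NRF1 matches, which began 98, 55 and 10 bases before the gene start. Cox6a1 held an NRF1 match on each strand 162 and 161 bases before the start, one 117 bases before it and an ETS match 16 bases before it. Sdhd had an NRF1 match 79 bases and an ETS match 46 bases before its start, Sdhb had an ETS match 6 bases after it, and Atp5g1 had none of these letters in the window. NRF1 and GABP, an ETS factor, are known regulators of nuclear genes for respiratory subunits. The NRF1 letters were in 22 of 74 member promoters (29.7%), against 17.3% of promoters of genes above 10 CPM in at least 3 libraries and 7.03% of all 27025 promoters in the table. The ETS letters were in 25.7% of member promoters, close to the 23.4% of those expressed genes and above the 9.93% of all promoters. AAGATGGCG, the core of the YY1 site, was in 8 member promoters (10.8%), in 4.17% of those of expressed genes and in 1.64% of all. These shares describe letters in a window and were not tested. By complex, NRF1 letters were most frequent in complex II (2 of 3 promoters) and complex V (7 of 15) and were in 1 of 12 promoters of complex IV.

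Levels were compared between genes as CPM per kilobase of exon, averaged over the 12 libraries. Atp5a1, the alpha subunit of the ATP synthase head, was highest at 106 CPM per kb. Cox8a, a small subunit of cytochrome c oxidase, followed at 72.5 CPM per kb, ahead of Atp5b, the beta subunit that holds the catalytic sites of the ATP synthase, at 66.5. Uqcrb, a small subunit of complex III, had 49.95. Within complex II the order was Sdha 30.4, Sdhd 20.99, Sdhb 16.3 and Sdhc 7.93 CPM per kb. Sdha and Sdhb encode the catalytic flavoprotein and iron-sulfur subunits, and Sdhc and Sdhd encode the membrane anchors. Complex I subunits had a median of 15.2 CPM per kb. Ndufb4c was listed highest among them at 48.4, but as a pseudogene close in sequence to Ndufb4 its reads cannot be assigned with certainty, and Ndufc2 came next at 40.8. Complex I assembly factors were the lowest class, with a median of 4.42 CPM per kb and Ndufaf8 at their head (12.03). Members known from muscle or hypoxic tissue were near the floor, with Cox4i2 at 0.654, Cox7a1 at 2.11 and Cox6a2 at 2.34 CPM per kb.

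**Figure D1:**
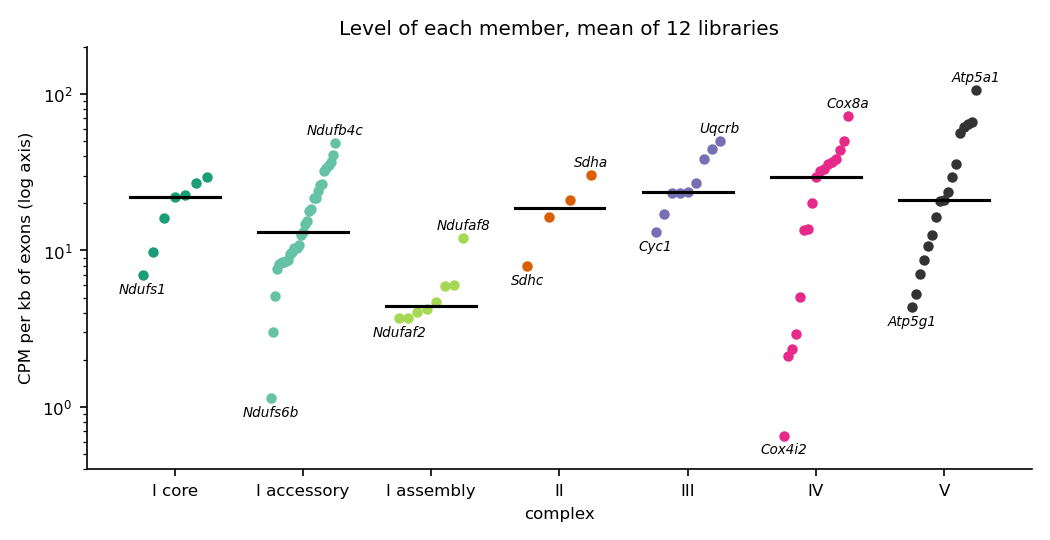
Mean level of each of the 93 members over 12 libraries, in CPM per kilobase of exon on a log axis, by complex. Each point is a gene, the bars are class medians, and the highest and lowest member of each class are named, with only the lowest named among the core subunits. Atp5a1 (106 CPM per kb) is the highest member and Cox4i2 (0.654 CPM per kb) the lowest.

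The isoform make-up was that of a non-muscle tissue in all 4 groups. Cox4i1 made up 98.3% ± 0.93 of the Cox4 pair per length in HSD ICHD7, 99.0% ± 0.25 in ND ICHD7, 99.0% ± 0.21 in HSD and 98.5% ± 1.16 in ND (SD, n = 3 each). Cox6b1 took 84.5% to 87.4% of the Cox6b pair as group means, with the remainder from Cox6b2, which is best known from testis. Cox7a2l, whose protein links complexes III and IV, took 68.7% to 71.8% of the Cox7a group. Cox6a1, the form found outside striated muscle, took 97.3% ± 0.97 of the Cox6a pair in HSD ICHD7, 93.6% ± 0.91 in ND ICHD7, 92.4% ± 7.85 in HSD and 94.5% ± 1.75 in ND. The wide spread in HSD came from library 2, where Cox6a2 had 6.03 CPM, against 1.08 and 0.740 CPM in HSD libraries 1 and 3. Cox6a2 shares exon sequence with Itgad, an integrin gene, and the strand setting of the read counting is not given, so reads of these genes cannot be told apart. Itgad had 39.6 CPM in HSD library 2 and 20.99 CPM in ND library 1, the libraries high in macrophage genes, and 1.40 to 5.92 CPM in the others. The mature subunit c of the ATP synthase ring is encoded by 3 genes. Of their summed level per length, Atp5g3 gave 48.1% to 50.2%, Atp5g2 36.9% to 39.4% and Atp5g1 the least. The Atp5g1 share was 14.4% ± 0.99 in HSD ICHD7, 12.6% ± 0.70 in ND ICHD7, 12.4% ± 0.86 in HSD and 12.5% ± 0.93 in ND (SD, n = 3 each).

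The summed level of all members was 4182 ± 996 CPM in HSD ICHD7, 3547 ± 405 in ND ICHD7, 3603 ± 124 in HSD and 3455 ± 263 in ND (SD, n = 3 each). Relative to the ND mean, the median member stood at 0.08, 0.10 and 0.63 on the log2 scale in the 3 HSD ICHD7 libraries, at -0.09, 0.12 and 0.00 in ND ICHD7, at 0.02, 0.12 and 0.08 in HSD, and at 0.12, -0.03 and -0.08 in ND. HSD ICHD7 library 3 thus lay far above every other library, and the remaining 11 overlapped across groups. Complex II spread differently from the other complexes, with its lowest median in ND ICHD7 library 2 (-0.25), where complex I accessory subunits had 0.24.

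**Figure D2:**
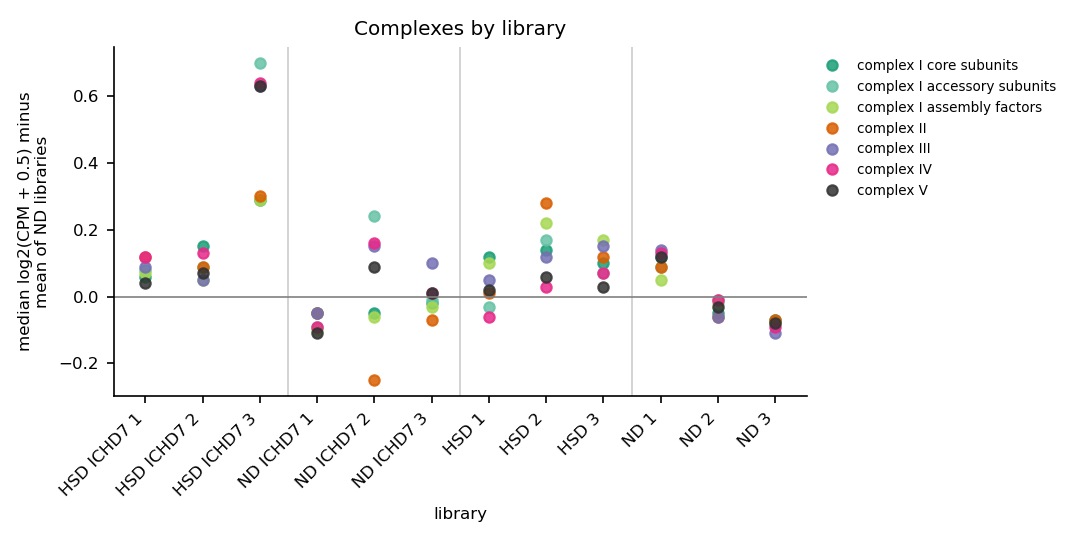
Median over the members of each class of log2(CPM + 0.5) minus the mean of the ND libraries, for each of the 12 libraries. HSD ICHD7 library 3 is high in every class, from 0.29 for the core subunits of complex I to 0.70 for its accessory subunits, and ND ICHD7 library 2 holds complex II low (-0.25) while accessory subunits are at 0.24.

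Without ICH, the high salt diet was accompanied by small differences of the members in both directions, none of which passed the test across all genes. Of 91 members tested, 64 had a fitted difference above 0 in HSD versus ND (54.6% of all 16787 genes tested did), with a median log2 fold change of 0.08 against 0.02 over all genes. None passed an adjusted p of 0.05 in limma, in edgeR or in DESeq2 (0.0774% of all genes passed in limma), and the smallest adjusted p was 0.583. At an unadjusted p below 0.05, limma had 5 members higher (3.65% of all genes) and 1 lower (3.28%). These counts were 4 and 1 in edgeR, against 502 and 641 of all 16787 genes. In DESeq2 they were 3 and 1, against 346 and 453 genes. The HSD and ND libraries did not overlap for 11 members higher in HSD (7.07% of all genes) and for 1 lower in HSD, Ndufb3 (5.75%). Leaving out HSD library 2 and ND library 1, which were high in macrophage genes, gave 73 of 91 members above 0 (56.0% of all genes) and 14 higher at an unadjusted p below 0.05 (6.64%), with a median of 0.12. Leaving out ND library 1 alone gave 14 such members as well, leaving out HSD library 1 gave 9, and leaving out any 1 of the other libraries gave 1 to 3. The shares of all genes higher at that p were 5.36% without ND library 1 and 3.53% without HSD library 1, and 1.90%, 2.19%, 3.42% and 4.17% without ND library 2, ND library 3, HSD library 2 and HSD library 3. The part of the macrophage genes in these values was not tested.

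After ICH, members stood higher in HSD ICHD7 than in ND ICHD7, with HSD ICHD7 library 3 giving most of the difference. In this comparison 84 of 91 members tested had a fitted difference above 0 (45.8% of 20079 genes did), and their median log2 fold change was 0.20, against -0.03 over all genes and 0.07 over the 10084 genes above 10 CPM in at least 3 libraries. No member passed an adjusted p of 0.05 in limma, edgeR or DESeq2 (0% of all genes passed in limma, and DESeq2 passed 98 genes). The smallest adjusted p of a member was 0.242. At an unadjusted p below 0.05, 11 members were higher (5.42% of all genes) and 1 lower, Cox6a2 (10.2%). When only the 10084 genes above 10 CPM in at least 3 libraries were tested, 891 were higher and 397 lower at that p in limma. edgeR gave 12 members higher, with 1334 of all 20079 genes higher and 1907 lower. DESeq2 gave 13 members higher, with 1265 genes higher and 1292 lower. No member was lower at that p in either tool. The groups did not overlap for 22 members higher in HSD ICHD7 (10% of all genes) and for Cox6a2, lower in HSD ICHD7 (13.3%). Without HSD ICHD7 library 3, 50 of 91 members were above 0 (47.4% of all genes), the median was 0.03 and 4 members were higher at an unadjusted p below 0.05 (3.81%). The 22 members remained without overlap, as they must, and no further member joined them, while the share of all genes was 13.4%. Without both this library and ND ICHD7 library 2, 75 of 90 members were above 0 (49.5% of all genes) with a median of 0.10, and 9 were higher (4.90%). Leaving out ND ICHD7 library 2 alone gave a median of 0.27, and leaving out ND ICHD7 library 1 alone 0.13, with 7 (3.23% of all genes) and 6 (4.15%) members higher at an unadjusted p below 0.05. Granulocyte-monocyte progenitor genes had a median log2 fold change of 1.14 in this comparison, with 9 of 10 higher at an unadjusted p below 0.05, and they summed to 4463 to 13990 CPM in HSD ICHD7, above the 2590 to 3852 CPM of ND ICHD7. HSPC markers had a median of -0.45, with 4 of 10 lower at that p, and macrophage genes one of -0.35, and their part in the members' values was not tested.

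In mice on the normal diet, members were centred near 0 in ND ICHD7 versus ND, and 5 of them lay lower in every ND ICHD7 library than in any ND library. Fitted differences were above 0 for 54 of 91 members (50.8% of 19387 genes), with a median log2 fold change of 0.04 against 0.01 over all genes. Although 16.7% of all genes passed an adjusted p of 0.05 in limma, no member did, nor in edgeR or DESeq2, and the smallest adjusted p was 0.0712, for Sdha. When only the 10084 genes above 10 CPM in at least 3 libraries were tested, 122 passed in limma. Of the 93 members, 79 reached that level. One member, Ndufa11, was higher at an unadjusted p below 0.05 (18.1% of all genes) and 3 were lower (10.3%), namely Sdha, Cyc1 and Atp5g2. Among the 10084 genes tested with that filter, the directions were the other way round, with 363 higher and 1751 lower at that p in limma. edgeR had 2 members higher and 3 lower, against 3507 and 1842 of all 19387 genes. DESeq2 had 2 and 2, against 3191 and 1321 genes. Non-overlapping groups were found for 0 members higher in ND ICHD7 (19.1% of all genes) and for 5 lower (14.3%), Sdha, Cyc1, Cox6a1, Atp5g2 and Atp5g3. The sign of the median turned without ND ICHD7 library 2, to -0.05 with 29 of 91 members above 0 (43.8% of all genes), and without ND library 3, where 44 members were above 0 (49.6%). Without ND ICHD7 library 1, 13 members were higher at an unadjusted p below 0.05 (8.72%). Once the trend of each library on GC content was removed, a setting chosen after seeing the data, the median was -0.12 over the members and -0.13 over all genes, and 8 members lay lower at an adjusted p below 0.05, Sdha among them, while 17.7% of all genes did. With the trend on gene length removed, Sdha, Cyc1 and Atp5g2 did so, as did 4.91% of all genes.

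Between HSD ICHD7 and HSD, the median difference of the members again rested on HSD ICHD7 library 3. Of 91 members, 76 were above 0 in HSD ICHD7 versus HSD (49.3% of 18082 genes), with a median log2 fold change of 0.15 against -0.01. No member passed an adjusted p of 0.05 in limma, edgeR or DESeq2 (6.58% of all genes passed in limma), and the smallest was 0.118, for Atp5g1. When only the 10084 genes above 10 CPM in at least 3 libraries were tested, 47 passed in limma. At an unadjusted p below 0.05, 636 of these genes were higher and 1437 lower. Atp5g1, Uqcrfs1, Ndufa1 and Cox7b were higher at an unadjusted p below 0.05 (11.8% of all genes), and 0 members were lower (9.73%). edgeR gave 10 members higher and 0 lower, against 2358 and 1424 of all 18082 genes. DESeq2 gave 10 and 1, against 2190 and 1150 genes. The groups did not overlap for 6 members higher in HSD ICHD7 (14.2%), Atp5g1, Atp5mpl, Cox7b, Ndufa1, Ndufs3 and Uqcrfs1, and for 1 lower, Cox7a1 (14.5%). Without HSD ICHD7 library 3 the median was -0.01, with 43 of 90 members above 0 (43.7% of all genes). At an unadjusted p below 0.05 in limma, 4 members were then higher and 4 lower, against 1032 and 1562 of 16641 genes. With any 1 library left out, Atp5g1 lay between 0.29 and 0.49 and Uqcrfs1 between 0.27 and 0.45. Ndufa1 lay between 0.37 and 0.82 and Cox7b between 0.24 and 0.83. Without HSD library 1 the count of members higher at an unadjusted p below 0.05 was 1 (9.64% of all genes). Without HSD ICHD7 library 1 that count was 13 (7.35%), as it was without HSD ICHD7 library 2 (7.39%). Macrophage genes had a median log2 fold change of -1.33 in this comparison and granulocyte-monocyte progenitor genes 1.83, and in ND ICHD7 versus ND these medians were -0.91 and 1.02. The part of either cell type in the members' values was not tested. The 4 comparisons share libraries in pairs, so their values are not independent of each other.

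**Figure D3:**
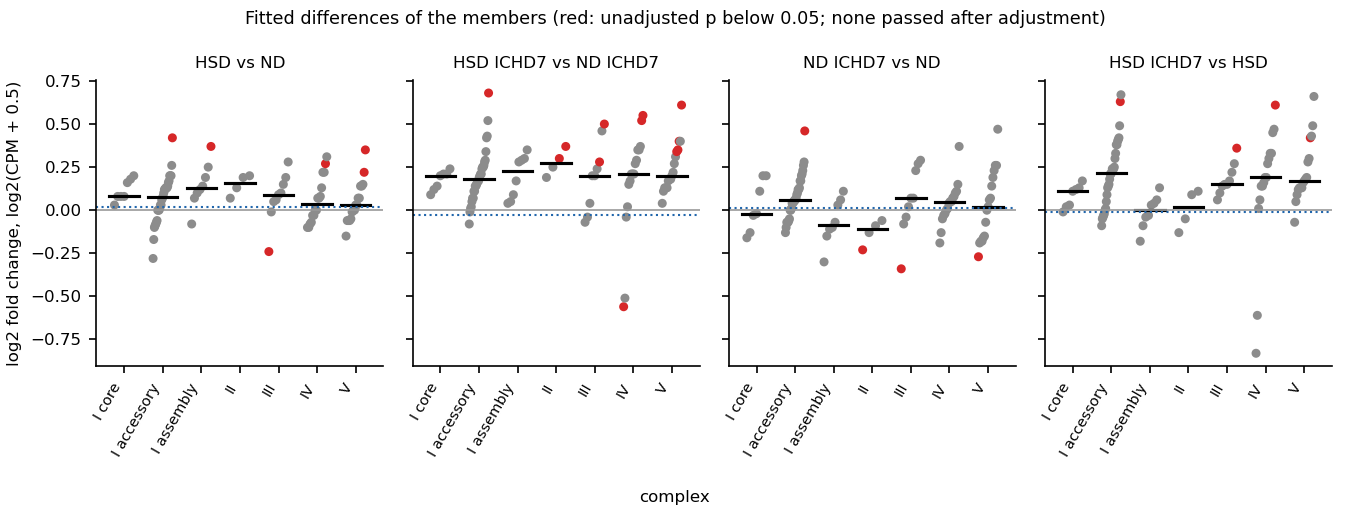
Fitted log2 fold changes of log2(CPM + 0.5) for the members tested, by complex, in 4 comparisons. Each point is a gene, black bars are class medians, the dotted line is the median of all genes tested, and red points had an unadjusted p below 0.05. In HSD ICHD7 versus ND ICHD7 the median of every class lies above that of all genes (-0.03), and in ND ICHD7 versus ND all 4 complex II members lie below 0.

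The core subunits of complex I carry the flavin and the iron-sulfur clusters that move electrons from NADH to ubiquinone. In HSD versus ND all 7 had a fitted difference above 0, with a median log2 fold change of 0.08 and a range of 0.03 to 0.20. In HSD ICHD7 versus ND ICHD7 all 7 were above 0 as well, with a median of 0.20. In ND ICHD7 versus ND 3 of 7 were above 0, with a median of -0.02, and in HSD ICHD7 versus HSD 6 of 7, with a median of 0.11. Ndufs1, the largest iron-sulfur subunit, had 56.1, 64.5 and 64.7 CPM in HSD ICHD7, against 54.1, 52.0 and 53.1 CPM in ND ICHD7. All 3 HSD ICHD7 libraries were above the 3 ND ICHD7 libraries, and the log2 fold change was 0.21 ± 0.10 (SE) with an adjusted p of 0.341 (limma). Its HSD libraries had 53.9, 55.2 and 62.6 CPM, and the ND libraries 58.4, 51.6 and 51.9 CPM, with overlap. Ndufs3 had 22.7, 22.8 and 24.9 CPM in HSD ICHD7, 21.3, 18.1 and 20.0 CPM in ND ICHD7, 21.3, 21.1 and 21.8 CPM in HSD and 21.1, 19.9 and 19.8 CPM in ND. It was the 1 core subunit whose HSD ICHD7 libraries lay above those of both ND ICHD7 and HSD, by 0.24 ± 0.12 and 0.13 ± 0.11 (SE) on the log2 scale. Ndufv2, an iron-sulfur subunit of the NADH-binding module, had 59.0, 59.6 and 54.2 CPM in HSD and 53.0, 53.6 and 47.5 CPM in ND, without overlap (0.16 ± 0.08, adjusted p = 0.746, limma). Ndufs7 and Ndufs8 had log2 fold changes of 0.20 ± 0.10 and 0.18 ± 0.11 in HSD versus ND, with overlap. The flavin-binding Ndufv1 had overlapping groups in all 4 comparisons. Ndufs1 and Ndufs3 share exon sequence with other genes, so part of their reads may belong to those.

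Accessory subunits of complex I surround the core and are needed for its assembly or stability. Their fitted differences ran from -0.28 to 0.42 in HSD versus ND. Of 30 tested, 20 were above 0 in HSD versus ND (median 0.08), 28 of 30 in HSD ICHD7 versus ND ICHD7 (0.18), 22 of 30 in ND ICHD7 versus ND (0.06) and 25 of 30 in HSD ICHD7 versus HSD (0.21). Ndufc1 had the largest difference of all members in HSD versus ND, with 13.7, 17.8 and 19.2 CPM in HSD and 12.7, 13.2 and 11.4 CPM in ND. The groups did not overlap, and the log2 fold change was 0.42 ± 0.14 (SE; 95% interval 0.11 to 0.73, adjusted p = 0.583, limma). Its libraries after ICH overlapped, with 14.7, 15.7 and 26.7 CPM in HSD ICHD7 and 12.8, 18.2 and 10.6 CPM in ND ICHD7. Ndufb3 was the lowest member in HSD versus ND, with 6.27, 5.83 and 6.55 CPM in HSD and 8.12, 7.23 and 7.55 CPM in ND (-0.28 ± 0.15, adjusted p = 0.765, limma).

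Ndufa1, an X-linked subunit of the membrane arm, was the member with the largest fitted difference in HSD ICHD7 versus ND ICHD7. It had 7.51, 6.43 and 12.4 CPM in HSD ICHD7, against 5.65, 4.42 and 5.29 CPM in ND ICHD7, without overlap. The log2 fold change was 0.68 ± 0.24 (95% interval 0.14 to 1.22, adjusted p = 0.270, limma). Against HSD (4.94, 5.83 and 5.07 CPM) the HSD ICHD7 libraries were also all higher, by 0.63 ± 0.24 with an adjusted p of 0.175 (limma). ND, with 5.67, 6.38 and 4.95 CPM, overlapped ND ICHD7 and HSD but not HSD ICHD7. Ndufa11 had 14.1, 24.7 and 18.3 CPM in ND ICHD7 and 15.3, 12.1 and 12.9 CPM in ND, a log2 fold change of 0.46 ± 0.19 with overlap (adjusted p = 0.140, limma). Ndufb4 had the largest fitted difference above 0 in HSD ICHD7 versus HSD (0.67 ± 0.39), but only through HSD ICHD7 library 3, with 45.6 CPM there, 14.7 and 13.4 CPM in the other HSD ICHD7 libraries and 11.1 to 14.3 CPM in HSD. Ndufb10 and Ndufb5, of the membrane arm, followed the same library, with 70.6 CPM of Ndufb10 and 42.4 CPM of Ndufb5 in HSD ICHD7 library 3 and log2 fold changes of 0.38 ± 0.18 and 0.41 ± 0.20 in HSD ICHD7 versus HSD, with overlap. Ndufs4, an accessory subunit near the NADH-binding module, had 32.1, 48.2 and 37.3 CPM in ND ICHD7 and 34.6, 32.4 and 29.6 CPM in ND (0.26 ± 0.14, adjusted p = 0.256, limma), with overlap. Ndufs6b, the lowest subunit, was at 0.0597 to 0.867 CPM and was not tested.

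The 8 assembly factors build complex I and are not part of it. Of them, 7 were above 0 in HSD versus ND (median 0.13) and 8 in HSD ICHD7 versus ND ICHD7 (0.23), against 3 in ND ICHD7 versus ND (-0.08) and 4 in HSD ICHD7 versus HSD (0.00). Ndufaf8, a partner of Ndufaf5 in human cells, had 10.1, 12.8 and 12.9 CPM in HSD and 9.73, 8.22 and 9.39 CPM in ND. The HSD libraries were all higher, with a log2 fold change of 0.37 ± 0.14 (adjusted p = 0.667, limma). After ICH it had 9.56, 8.13 and 14.3 CPM in HSD ICHD7 and 8.61, 7.76 and 8.88 CPM in ND ICHD7, with overlap. Ndufaf5, which modifies the core subunit Ndufs7 in human cells, had 8.67, 6.58 and 8.38 CPM in HSD ICHD7 and 5.72, 6.57 and 5.87 CPM in ND ICHD7. The lowest HSD ICHD7 library (6.579 CPM) was just above the highest ND ICHD7 library (6.568 CPM), so these groups nearly touched (0.35 ± 0.17, adjusted p = 0.348, limma). Ndufaf1, a scaffold of the membrane arm, had 6.83, 8.43 and 7.41 CPM in HSD ICHD7 and 5.98, 5.85 and 6.24 CPM in ND ICHD7, with all HSD ICHD7 libraries higher (0.30 ± 0.16). The groups of Ndufaf3 overlapped in HSD ICHD7 versus ND ICHD7 (0.28 ± 0.17) and in HSD ICHD7 versus HSD (0.13 ± 0.18), and those of Ndufaf2 in ND ICHD7 versus ND (-0.15 ± 0.18). Ndufaf4 also had no overlap in HSD versus ND, and Ndufaf7, a methyltransferase, had overlapping groups in every comparison.

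Complex II, succinate dehydrogenase, links the citric acid cycle to the respiratory chain. Its 4 genes all had HSD ICHD7 libraries above every ND ICHD7 library, as 10% of all genes did, and all 4 had negative fitted differences in ND ICHD7 versus ND. Their summed level was 226 ± 25.1 CPM in HSD ICHD7, 187 ± 7.79 in ND ICHD7, 229 ± 15.3 in HSD and 212 ± 12.9 in ND (SD, n = 3 each). Sdha had 113, 129 and 150 CPM in HSD ICHD7, 106, 108 and 113 CPM in ND ICHD7, 127, 139 and 138 CPM in HSD and 136, 126 and 122 CPM in ND. All 3 ND ICHD7 libraries were below all 3 ND libraries, while the lowest HSD ICHD7 library (113.2 CPM) was barely above the highest ND ICHD7 library (112.6 CPM). The log2 fold change was -0.23 ± 0.08 in ND ICHD7 versus ND (95% interval -0.40 to -0.06, adjusted p = 0.0712, limma) and 0.25 ± 0.12 in HSD ICHD7 versus ND ICHD7 (adjusted p = 0.338, limma), comparisons that share the ND ICHD7 libraries. In HSD ICHD7 versus HSD it was -0.05 ± 0.12, and in HSD versus ND 0.07 ± 0.07. Sdhb had 37.6, 34.96 and 39.0 CPM in HSD ICHD7, 33.6, 30.1 and 33.7 CPM in ND ICHD7, 38.05, 45.8 and 38.5 CPM in HSD and 37.7, 33.1 and 36.0 CPM in ND. It was the complex II gene without overlap in HSD versus ND as well (0.19 ± 0.10, adjusted p = 0.755, limma).

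Sdhd, an anchor subunit, had 27.6, 26.8 and 33.6 CPM in HSD ICHD7 and 23.5, 19.9 and 23.9 CPM in ND ICHD7. Every HSD ICHD7 library was higher, with a log2 fold change of 0.37 ± 0.13 (95% interval 0.07 to 0.68, adjusted p = 0.271, limma). Its HSD libraries had 23.1, 30.4 and 29.3 CPM and its ND libraries 24.8, 25.8 and 21.2 CPM, with overlap. Sdhc, the other anchor, had 27.1, 27.9 and 31.4 CPM in HSD ICHD7 and 26.6, 20.3 and 23.3 CPM in ND ICHD7 (0.30 ± 0.13, adjusted p = 0.316, limma). Its value in ND ICHD7 versus ND (-0.06 ± 0.13) turned to 0.04 without ND library 1 or without ND ICHD7 library 2. In HSD it had 24.9, 28.2 and 26.5 CPM and in ND 27.9, 22.1 and 23.0 CPM. All 4 genes were above 0 in HSD versus ND, with a median of 0.16, and in HSD ICHD7 versus HSD 2 of 4 were (median 0.02).

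Complex III, the cytochrome bc1 complex, had 7 of 9 members above 0 in HSD versus ND (median log2 fold change 0.09) and in HSD ICHD7 versus ND ICHD7 (0.20), 6 of 9 in ND ICHD7 versus ND (0.07) and 9 of 9 in HSD ICHD7 versus HSD (0.15). Its redox subunits Cyc1 and Uqcrfs1 differed in pattern. Cyc1, cytochrome c1, had 27.0, 33.3 and 35.4 CPM in HSD ICHD7, 22.1, 18.8 and 26.4 CPM in ND ICHD7, 28.9, 30.8 and 31.7 CPM in HSD and 29.7, 27.1 and 28.1 CPM in ND. The ND ICHD7 libraries were the low ones, below those of every other group. The log2 fold change was -0.34 ± 0.12 in ND ICHD7 versus ND (adjusted p = 0.102, limma) and 0.50 ± 0.16 in HSD ICHD7 versus ND ICHD7 (95% interval 0.15 to 0.85, adjusted p = 0.260, limma). Uqcrfs1, the Rieske iron-sulfur protein, had 36.3, 33.3 and 42.9 CPM in HSD ICHD7, 30.6, 30.0 and 31.2 CPM in ND ICHD7, 28.6, 26.0 and 32.3 CPM in HSD and 32.5, 27.4 and 27.7 CPM in ND. Here the HSD ICHD7 libraries were the high ones, above those of all 3 other groups. The log2 fold change was 0.36 ± 0.13 in HSD ICHD7 versus HSD (adjusted p = 0.152, limma) and 0.28 ± 0.12 in HSD ICHD7 versus ND ICHD7 (adjusted p = 0.308, limma). Uqcrh, the hinge protein, was the 1 member lower at an unadjusted p below 0.05 in HSD versus ND, with 25.9, 27.1 and 33.2 CPM in HSD and 35.4, 31.8 and 34.4 CPM in ND (-0.24 ± 0.11, adjusted p = 0.707, limma), and the groups overlapped. The core proteins Uqcrc1 and Uqcrc2 had log2 fold changes of 0.24 ± 0.16 and 0.20 ± 0.11 in HSD ICHD7 versus ND ICHD7. Uqcrc2 did not overlap there, with 45.2, 42.9 and 53.5 CPM in HSD ICHD7 and 41.3, 39.95 and 41.3 CPM in ND ICHD7. Among the small subunits, Uqcrq had 41.8, 40.4 and 78.4 CPM in HSD ICHD7 and 34.1, 39.0 and 38.1 CPM in ND ICHD7, without overlap (0.46 ± 0.23, adjusted p = 0.351, limma). Uqcr11 and Uqcr10 had overlapping groups in ND ICHD7 versus ND, at 0.23 ± 0.13 and 0.29 ± 0.16 on the log2 scale, and Uqcr11 also in HSD versus ND (0.28 ± 0.16), as Uqcrq did (0.15 ± 0.09).

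Complex IV, cytochrome c oxidase, had 8 of 16 members tested above 0 in HSD versus ND (median log2 fold change 0.03), 13 of 16 in HSD ICHD7 versus ND ICHD7 (0.21), 10 of 16 in ND ICHD7 versus ND (0.04) and 14 of 16 in HSD ICHD7 versus HSD (0.19). Cox6a1, a regulatory subunit, did not overlap between diets either before or after ICH. It had 28.8, 27.2 and 38.9 CPM in HSD ICHD7, 21.8, 20.6 and 22.8 CPM in ND ICHD7, 29.4, 31.1 and 29.6 CPM in HSD and 28.3, 22.9 and 23.5 CPM in ND. All HSD libraries were above all ND libraries, and all HSD ICHD7 libraries were above all ND ICHD7 libraries. The log2 fold change was 0.27 ± 0.10 in HSD versus ND (95% interval 0.05 to 0.50, adjusted p = 0.638, limma) and 0.52 ± 0.15 in HSD ICHD7 versus ND ICHD7 (95% interval 0.18 to 0.85, adjusted p = 0.256, limma). Cox6b1, which lies where the monomers of the dimer meet, had 25.5, 21.5 and 42.3 CPM in HSD ICHD7 and 18.1, 20.6 and 19.4 CPM in ND ICHD7, without overlap (0.55 ± 0.22, adjusted p = 0.291, limma). Cox6a2 went the other way, with 1.09, 0.517 and 0.903 CPM in HSD ICHD7 and 1.31, 1.61 and 1.40 CPM in ND ICHD7 (-0.56 ± 0.23, adjusted p = 0.303, limma). The part of the exons shared with Itgad in these low values was not tested. It was also the lowest member in HSD ICHD7 versus HSD (-0.83 ± 0.55), with overlap and with HSD library 2 far above the rest. Cox7b had 47.5, 51.1 and 108 CPM in HSD ICHD7 and 41.7, 41.3 and 42.3 CPM in HSD (0.61 ± 0.26, adjusted p = 0.219, limma). Its HSD ICHD7 libraries were all higher than those of HSD, and the next highest of the 12 libraries after HSD ICHD7 library 3 was ND ICHD7 library 2 at 78.8 CPM. Cox6c, a small membrane subunit, had the same order, with 213 CPM in HSD ICHD7 library 3 and 158 CPM in ND ICHD7 library 2, and 92.5 to 116 CPM in the other 10 libraries (0.47 ± 0.23 in HSD ICHD7 versus HSD). Cox7a1, the muscle form, was the member without overlap and lower in HSD ICHD7 than in HSD, at 0.888, 0.296 and 1.01 CPM against 1.08, 1.21 and 1.69 CPM. These values are near the floor, and the groups nearly touched (1.01 and 1.08 CPM). Cox4i1, a nuclear subunit made early in the assembly of the complex, had 81.0, 77.8 and 108 CPM in HSD ICHD7, 71.1, 78.5 and 78.0 CPM in ND ICHD7, 72.7, 79.9 and 77.9 CPM in HSD and 76.6, 68.6 and 65.7 CPM in ND, with overlap throughout. Cox4i2 was at 0.190 to 1.12 CPM in every library and was too low for the pairwise tests.

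Complex V had 17 of 17 members above 0 in HSD ICHD7 versus ND ICHD7 (median log2 fold change 0.20) and 16 of 17 in HSD ICHD7 versus HSD (0.17), with 11 of 17 in HSD versus ND (0.03) and 10 of 17 in ND ICHD7 versus ND (0.02). Atp5g1, the least expressed of the subunit c genes per length, had the smallest p of all members in HSD ICHD7 versus ND ICHD7 and in HSD ICHD7 versus HSD. It had 24.7, 24.3 and 32.6 CPM in HSD ICHD7, 17.1, 15.9 and 19.6 CPM in ND ICHD7, 20.4, 19.5 and 20.2 CPM in HSD and 23.7, 19.7 and 17.1 CPM in ND. The 3 HSD ICHD7 libraries were the highest of the 12. The log2 fold change was 0.61 ± 0.15 in HSD ICHD7 versus ND ICHD7 (95% interval 0.28 to 0.95, adjusted p = 0.242, limma) and 0.42 ± 0.14 in HSD ICHD7 versus HSD (95% interval 0.11 to 0.73, adjusted p = 0.118, limma), against 0.00 ± 0.12 in HSD versus ND. The other subunit c genes did not overlap between HSD ICHD7 and ND ICHD7 either. Atp5g3 had 35.2, 36.1 and 52.5 CPM in HSD ICHD7 and 30.8, 29.4 and 31.4 CPM in ND ICHD7 (0.40 ± 0.16, adjusted p = 0.285, limma), and Atp5g2 had 19.9, 20.5 and 32.1 CPM in HSD ICHD7 and 19.0, 15.5 and 19.1 CPM in ND ICHD7 (0.40 ± 0.19, adjusted p = 0.341, limma). Both were lower in all ND ICHD7 libraries than in the ND libraries, which had 23.0, 21.1 and 20.6 CPM of Atp5g2 and at least 31.5 CPM of Atp5g3.

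In the head of the enzyme, Atp5b had 276, 302 and 371 CPM in HSD ICHD7, 248, 236 and 262 CPM in ND ICHD7, 270, 292 and 282 CPM in HSD and 319, 271 and 256 CPM in ND. Its HSD ICHD7 and ND ICHD7 libraries did not overlap (0.34 ± 0.13, adjusted p = 0.286, limma). Atp5a1 had 316, 360 and 431 CPM in HSD ICHD7 and 290, 276 and 323 CPM in ND ICHD7, with overlap (0.31 ± 0.14, adjusted p = 0.323, limma). Atp5o, the stalk protein that confers oligomycin sensitivity, had 48.1, 48.5 and 64.7 CPM in HSD ICHD7 and 38.8, 44.1 and 42.1 CPM in ND ICHD7, without overlap (0.35 ± 0.14, adjusted p = 0.285, limma). In HSD versus ND it had 44.2, 49.4 and 52.1 CPM in HSD and 46.6, 40.5 and 37.8 CPM in ND (0.22 ± 0.10, adjusted p = 0.705, limma), with overlap. Atp5md, a small membrane subunit, had 16.04, 22.0 and 21.6 CPM in HSD and 16.7, 15.1 and 14.3 CPM in ND (0.35 ± 0.14, adjusted p = 0.657, limma), also with overlap. Atp5d, the delta subunit, had 60.8, 64.3 and 61.3 CPM in HSD and 60.5, 53.6 and 53.4 CPM in ND, without overlap (0.15 ± 0.08). Atp5l, subunit g of the membrane part, had 29.9, 33.3 and 63.5 CPM in HSD ICHD7 and 30.3, 26.6 and 28.0 CPM in HSD, with overlap (0.49 ± 0.24, adjusted p = 0.281, limma). Atp5a1, Atp5d, Atp5g2, Atp5md and Atp5o share exon sequence with other genes. In all, 32 of the 93 members do.

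**Figure D4:**
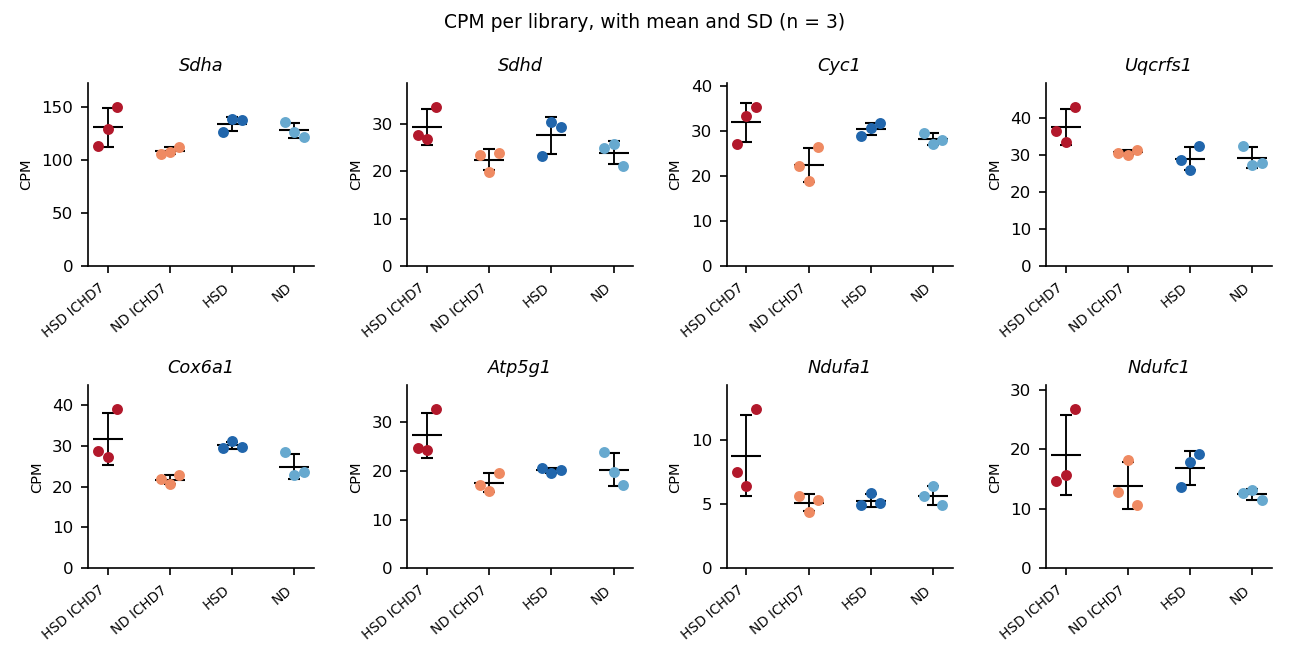
CPM of 8 members in each library, with the group mean and SD (n = 3). Atp5g1 and Uqcrfs1 are highest in the HSD ICHD7 libraries, Cyc1 and Sdha are lowest in the ND ICHD7 libraries, Cox6a1 is higher in HSD than in ND and higher in HSD ICHD7 than in ND ICHD7 in every library, and Ndufc1 is higher in every HSD library than in any ND library.

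Whether the diet difference itself changed with ICH was tested as the diet by ICH interaction over all 12 libraries. A value above 0 means that the log2 fold change of HSD ICHD7 versus ND ICHD7 was larger than that of HSD versus ND. No member passed an adjusted p of 0.05 in limma, edgeR or DESeq2 (0% of all genes passed in limma, and 0 genes in edgeR and DESeq2). Of 92 members tested, 73 were above 0 (45.7% of 20393 genes), with a median of 0.13 against -0.03 over all genes. Atp5g1 (0.61 ± 0.20, SE, adjusted p = 0.528), Ndufa1 (0.77 ± 0.30, adjusted p = 0.555) and Cyc1 (0.40 ± 0.18, adjusted p = 0.596) were above 0 at an unadjusted p below 0.05 in limma (2.22% of all genes), and no member was below 0 at that p (6.13%). When only the 10084 genes above 10 CPM in at least 3 libraries were tested, 287 were above 0 and 209 below at that p in limma. edgeR and DESeq2 each had 5 members above 0 at that p, against 602 and 470 of all 20393 genes. Without HSD ICHD7 library 3, 40 of 91 members were above 0, and the median was -0.02 over the members and -0.02 over all genes. For Sdha, Sdhb, Sdhc and Sdhd the interaction was 0.18 ± 0.14, 0.00 ± 0.14, 0.17 ± 0.17 and 0.18 ± 0.19, so a diet difference in complex II that depends on ICH was not shown.

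HSD ICHD7 library 3 and ND ICHD7 library 2 were described through the 79 members above 10 CPM in at least 3 libraries, each set against the mean of the other 2 libraries of its group. In HSD ICHD7 library 3 all 79 were above that mean, with a median log2 difference of 0.55, while all 10084 genes above the same level had a median of 0.07. A log2 difference above 0.5 was reached by 55.7% of these members and 10.6% of those genes. Complex IV (0.65), complex V (0.62) and the accessory subunits of complex I (0.60) had the largest medians, and complex II (0.24) and the core subunits of complex I (0.23) the smallest. ND ICHD7 library 2 had a median of 0.17 over the members and -0.02 over the genes, and 29.1% of members and 4.39% of genes above 0.5. There the accessory subunits of complex I stood at 0.39, complex IV at 0.31 and complex V at 0.09, with the core subunits at -0.04 and complex II at -0.20. Short genes spread widely in both libraries. For genes with under 1000 bases of exon, the 10th and 90th percentiles were -0.75 and 1.02 in HSD ICHD7 library 3 and -0.73 and 0.79 in ND ICHD7 library 2. In HSD ICHD7 library 3, these genes had a median of 0.20 and those of 2000 bases or more 0.05, against 0.71 and 0.49 for members of the same lengths. The corresponding medians in ND ICHD7 library 2 were 0.08 and -0.03 for all genes, with 0.14 and 0.04 in ND library 1, and 0.24 and 0.14 for members. The member median of each length class thus lay above that of all genes in HSD ICHD7 library 3 and ND ICHD7 library 2. It did so in ND library 1 and HSD library 2 as well. ND library 1 had medians of 0.20, 0.19 and 0.18 for members, from short to long, and 0.14, 0.13 and 0.04 for all genes. There 72 of 79 members lay above 0, with a median of 0.18, against 56 of 79 in ND ICHD7 library 2. Ndufb4, Atp5mpl and Cox7b stood out most in HSD ICHD7 library 3 among the named genes. Atp5mpl, a small ATP synthase subunit, had 170 CPM there and 151 CPM in ND ICHD7 library 2, against 55.0 to 74.6 CPM in the other 10 libraries. HSD ICHD7 library 3 also held the 13990 CPM of granulocyte-monocyte progenitor genes given above, with Mpo, a granule enzyme of these cells, at 11011 CPM against 4314 and 3534 CPM in the other HSD ICHD7 libraries. The part of cell make-up, of gene length and of RNA quality in these values was not tested.

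**Figure D5:**
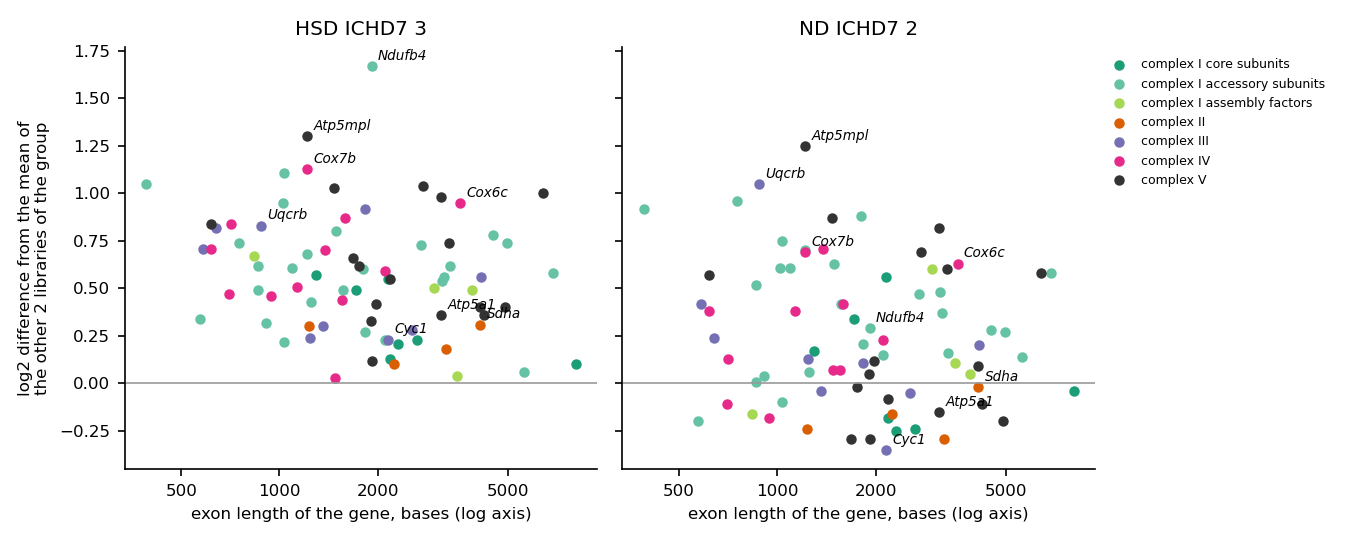
Log2 difference of each of 79 members from the mean of the other 2 libraries of its group, against exon length on a log axis, for HSD ICHD7 library 3 and ND ICHD7 library 2. In HSD ICHD7 library 3 all 79 members lie above 0, with a median of 0.55, and in ND ICHD7 library 2 the 4 complex II members lie below 0.

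Other genes of the pathway were read from lists outside the symbol rule. The 13 subunits encoded in mitochondrial DNA had summed levels of 15822, 13966 and 20893 CPM in HSD ICHD7, 12924, 17948 and 13050 CPM in ND ICHD7, 13102, 9558 and 14111 CPM in HSD and 14338, 11727 and 11632 CPM in ND. In HSD ICHD7 versus HSD all 13 were above 0 (49.3% of all genes), with a median log2 fold change of 0.54. At an unadjusted p below 0.05 in limma, 9 of 13 were higher (11.8% of all genes). Only 1 of 13, mt-Nd6, rose at an adjusted p of 0.05 in limma (6.58% of all genes passed). mt-Nd6 encodes a membrane subunit of complex I and had 639, 662 and 768 CPM in HSD ICHD7 and 424, 341 and 526 CPM in HSD (0.70 ± 0.16, adjusted p = 0.0353, limma). This call was kept without HSD library 3 and lost without any 1 of the other 5 libraries, with limma's adjusted p between 0.0391 and 0.140, and it was lost with the GC trend removed (0.34, adjusted p = 0.198) and under the filter of CPM above 10 in 3 libraries (adjusted p = 0.104). In ND ICHD7 versus ND 12 of 13 were above 0 (median 0.22) and none passed (16.7% of all genes did), with 4 higher at an unadjusted p below 0.05 (18.1%). There mt-Nd6 had 614, 606 and 608 CPM in ND ICHD7 and 566, 451 and 406 CPM in ND (0.37 ± 0.12, adjusted p = 0.0685, limma). In HSD ICHD7 versus ND ICHD7 12 of 13 were above 0 (median 0.17) and in HSD versus ND 2 of 13 (median -0.12), and none passed in either. Of 41 tested assembly factors outside the rule, 31 were above 0 in HSD versus ND (median 0.14), 33 in HSD ICHD7 versus ND ICHD7 (0.04), 20 in ND ICHD7 versus ND (-0.01) and 25 in HSD ICHD7 versus HSD (0.03). The only one to pass was Sco2, a copper chaperone of complex IV, which fell in HSD ICHD7 versus HSD, where 6.58% of all genes passed. Sco2 had 12.8, 15.3 and 13.0 CPM in HSD ICHD7 and 20.9, 20.9 and 19.4 CPM in HSD (-0.56 ± 0.13, adjusted p = 0.0328, limma). That call was lost without any 1 of the 6 libraries, at an adjusted p of 0.0703 to 0.174 in limma, with the replicate number as a block (adjusted p = 0.0559), under the filter of CPM above 10 (0.0915), with the GC trend removed (0.0743) and with library medians set equal (0.0506). None of the 14 genes of the mobile carriers and quinone synthesis, nor of the 17 regulators of respiratory and mitochondrial genes, passed in any comparison. Cycs, cytochrome c, had log2 fold changes of 0.40 ± 0.24 in HSD ICHD7 versus ND ICHD7 and 0.13 ± 0.09 in HSD versus ND. The regulators Nrf1, Gabpa and Tfam had values between -0.13 and 0.13 in all 4 comparisons. Others of the 17 differed at an unadjusted p below 0.05 in limma. In HSD ICHD7 versus HSD, Polrmt (-0.33), Twnk (-0.34) and Pprc1 (-0.25) were lower (9.73% of all genes) and Tfb1m (0.37) was higher (11.8%). Tfb1m was also higher in HSD ICHD7 versus ND ICHD7 (0.39, 5.42% of all genes), and Polrmt was lower in ND ICHD7 versus ND (10.3%).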

How the data were processed

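Libraries were made from total RNA of sorted HSPCs with a SMART-Seq Stranded kit. Rsubread alignment to mm10, gene counts from featureCounts and TMM normalisation in edgeR 3.24.3 were done by the authors. The deposited values are CPM on this TMM-adjusted library size, and whether strand was used in counting is not given in the sources used here. All 20792 genes of each library were used. Values divided by the CPM of 1 read gave whole reads (tolerance 0.01 of a read, 100.0% of values), with less certainty for HSD library 2. Genes that reached 10 reads in 3 or more of the compared libraries were tested on log2(CPM + 0.5) with limma 3.58.1 (trended variance, Benjamini-Hochberg adjustment over all genes tested) in R 4.3.3. A fold change on this scale understates the change of genes with low CPM. The 4 pairwise tests used the 6 libraries of the groups compared, and the interaction used all 12. edgeR 4.0.16 (quasi-likelihood) and DESeq2 1.42.0 were run on the recovered reads as alternatives. The script was tested on simulated data. Exon lengths, overlaps and biotypes came from GENCODE release 21 for mouse, which held all 93 members, and promoters from RefSeq, GRCm38.p6.

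Named genes were the complex II genes, the isoform families, the alpha and beta subunits, the core subunits of complex I, the highest and lowest member of each complex per length, the 3 members of each complex with the smallest p in each pairwise comparison and those with the smallest p in the interaction. A few others, singled out as extremes or for the isoform and annotation notes, were chosen after their values were seen. Of the genes this rule takes, 1 is not reported here. Members and lists were chosen with earlier results of these data known. Alternatives covered the tool, normalisation, filters, pseudocount, gene length, GC content, the replicate block and left-out libraries. Intervals cover the spread between libraries only.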

Additional observations from a re-analysis of the deposited data

How the results depend on the processing

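No member passed an adjusted p of 0.05 under most alternatives run, with these exceptions. With all 12 libraries in 1 fit, 1 member passed in HSD ICHD7 versus ND ICHD7 (Atp5g1, where 297 genes of the table passed) and 1 in HSD ICHD7 versus HSD (Uqcrfs1, 3544 genes). With the 4 libraries that stand apart left out, as far as they were in the comparison, 1 member, Cox5b, passed in HSD ICHD7 versus HSD, as did 796 genes of the table. In ND ICHD7 versus ND, 3 members passed once the trend on gene length was removed (Sdha, Cyc1 and Atp5g2, with 3466 genes in all), and 8 once the trend on GC content was removed (5816 genes in all), where the median log2 fold change was -0.12 over the members and -0.13 over all genes. All of these members lay lower in ND ICHD7. The GC correction and the left-out sets of libraries were chosen after seeing the data. The pair high in macrophage genes was planned, but with earlier results of these data known. The cause of these shifts was not tested.

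Leaving out 1 library at a time moved the members' median log2 fold change between 0.05 and 0.12 in HSD versus ND, 0.03 and 0.30 in HSD ICHD7 versus ND ICHD7, -0.05 and 0.07 in ND ICHD7 versus ND, -0.01 and 0.25 in HSD ICHD7 versus HSD, and -0.02 and 0.22 in the interaction. Without 1 library, Sdhc lay between -0.15 and 0.04 in ND ICHD7 versus ND, and in HSD ICHD7 versus HSD Sdha lay between -0.15 and 0.05, Sdhd between -0.03 and 0.16 and Uqcrc1 between -0.02 and 0.29. With the 4 libraries left out, Sdhc was 0.14 and Sdhd 0.02 in ND ICHD7 versus ND, and Atp5g3, at 0.33 with all libraries, was -0.01 in the interaction. Ndufaf7 was -0.07 in ND ICHD7 versus ND and -0.03 in HSD ICHD7 versus HSD with the GC trend removed. With the length trend removed, Cox4i1 was -0.01 in ND ICHD7 versus ND and Sdha 0.01 in HSD ICHD7 versus HSD, where equal library medians gave 0.00.

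In ND ICHD7 versus ND, limma passed 3245 of 19387 genes at an adjusted p of 0.05. Under the filter of CPM above 10 in 3 libraries it passed 122 of 10084. For HSD ICHD7 versus HSD these counts were 1189 of 18082 and 47 of 10084. In HSD versus ND limma passed 13 genes, DESeq2 65, and limma without both libraries high in macrophage genes 91. In HSD ICHD7 versus ND ICHD7 limma passed 0 genes (1089 higher and 2045 lower at an unadjusted p below 0.05), DESeq2 98, and limma with all 12 libraries in 1 fit 297. edgeR on the recovered reads passed 14 genes in HSD versus ND, 0 in HSD ICHD7 versus ND ICHD7 and in the interaction, 3094 in ND ICHD7 versus ND and 1064 in HSD ICHD7 versus HSD. Leaving out 1 library gave 264 to 2995 genes in ND ICHD7 versus ND and 56 to 671 in HSD ICHD7 versus HSD. Same-numbered libraries did not deviate together (correlations of -0.191 to 0.079), so the numbers were not taken as pairs. With the replicate number as a block, no member passed in any comparison. The members' medians were then 0.08, 0.20, 0.04, 0.15 and 0.13 in the order above. At an unadjusted p below 0.05 in limma, 4, 11, 2, 10 and 3 members were higher. Of all genes, 435 of 16787, 1024 of 20079, 3543 of 19387, 2203 of 18082 and 424 of 20393 were higher at that p.

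The standard error of a member's log2 fold change had a median of 0.11 in HSD versus ND, 0.18 in HSD ICHD7 versus ND ICHD7, 0.13 in ND ICHD7 versus ND, 0.18 in HSD ICHD7 versus HSD and 0.24 in the interaction, so differences of the size of the members' medians were not detectable gene by gene with 3 libraries a group.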
